A study of Homo sapiens with 9 samples.

Results

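The early transcriptome of PTBP1 knockdown was examined in U251 cells, an established human glioblastoma line, 3 days post infection (dpi). The 3 libraries of sh-Ptbp1-3d, infected with a lentivirus carrying a short hairpin RNA against PTBP1, were compared with the 3 libraries of sh-Luci-3d, infected with a control hairpin against luciferase. Genes were taken where the mean over these 6 libraries was at least 1 FPKM (fragments scaled to transcript length and library size), which gave 11165 of the 19932 gene symbols. Both groups had been moved at 2 dpi to neuronal induction medium with forskolin and dorsomorphin, so medium, lentivirus and time were shared by the control. Another group, sh-Ptbp1-7d, harvested 7 dpi, entered the same fit and so contributes to the spread behind the day 3 p-values. Its own values are quoted only beside those of day 3. No control of day 7 is used here. Of the members, 68 had a sh-Luci-3d mean and 50 a sh-Ptbp1-3d mean under 1 FPKM, and all 11165 entered the fit. No label says that replicates came from separate cultures, so p-values measure the spread between these libraries, which may be technical. RNA came from whole cultures, in which fewer cells of a type and less RNA per cell cannot be told apart.

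PTBP1 is an RNA-binding protein that attaches to pyrimidine-rich stretches of pre-mRNA and mostly represses the inclusion of nearby exons. It is abundant in dividing and non-neuronal cells. During neuronal differentiation it gives way to its paralog PTBP2, whose transcript it otherwise drives into nonsense-mediated decay by skipping of a frame-shifting exon, and PTBP1 limits its own transcript through the matching exon. Lowering PTBP1 is also known to let the microRNA miR-124 act on its targets, among them parts of the REST complex that holds neuronal genes down in other cells.

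The matching exons are shown because they link the targeted gene to its paralog. Each line gives the spliced transcript of GENCODE v29 (GRCh38, plus strand), with the cassette exon in capitals and 20 bases of the neighbouring exons in lower case.
PTBP1 exon 11 of 15 (PTBP1-203, chr19:807869-807902): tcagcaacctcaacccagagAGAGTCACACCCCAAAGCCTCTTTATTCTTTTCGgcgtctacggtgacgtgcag
PTBP2 exon 10 of 14 (PTBP2-201, chr1:96806419-96806452): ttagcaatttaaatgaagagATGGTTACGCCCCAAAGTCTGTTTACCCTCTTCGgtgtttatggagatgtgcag
Both exons have 34 bases, and 25 of the 34 positions (73.5%) are identical. Since 34 leaves a remainder of 1 after division into codons, leaving the exon out shifts the reading frame. The annotation holds 2 PTBP1 transcripts that skip it, classed as nonsense-mediated decay, and 3 PTBP2 transcripts that skip it, classed as processed transcripts. SRSF3, an SR protein that promotes exon inclusion and limits its own transcript, has the reverse arrangement, in which including an exon brings the stop codon. SRSF3-203 holds a poison exon, exon 4 of 7 (chr6:36599821-36600276, 456 bases). Its stop codon, in capitals, is reached at base 32 of the exon, and the line opens with the end of the exon before it.
SRSF3 poison exon: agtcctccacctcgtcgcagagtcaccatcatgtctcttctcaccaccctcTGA
The deposited values are sums per gene and do not separate these forms, so no exon was measured.

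Of the 6 libraries, 2 stood apart, and each result below was checked without them. Over 10962 genes with a known GC content, sh-Luci-3d replicate 3 deviated upward with GC content (correlation 0.58), and sh-Luci-3d replicates 1 and 2 deviated downward (-0.50 and -0.52). The sh-Ptbp1-3d libraries lay between, at 0.31, 0.11 and 0.12. The standard deviation of the log2 difference was 0.29 between sh-Luci-3d replicates 1 and 2. It was 0.42 between either of them and replicate 3, more than the 0.32 to 0.33 between replicate 3 and the sh-Ptbp1-3d libraries. Replicates 1 and 2 were themselves at 0.35 to 0.38 from the sh-Ptbp1-3d libraries, farther than replicate 3. FPKM values carry no read depth, so the depth behind them is unknown.

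**Figure D1:**
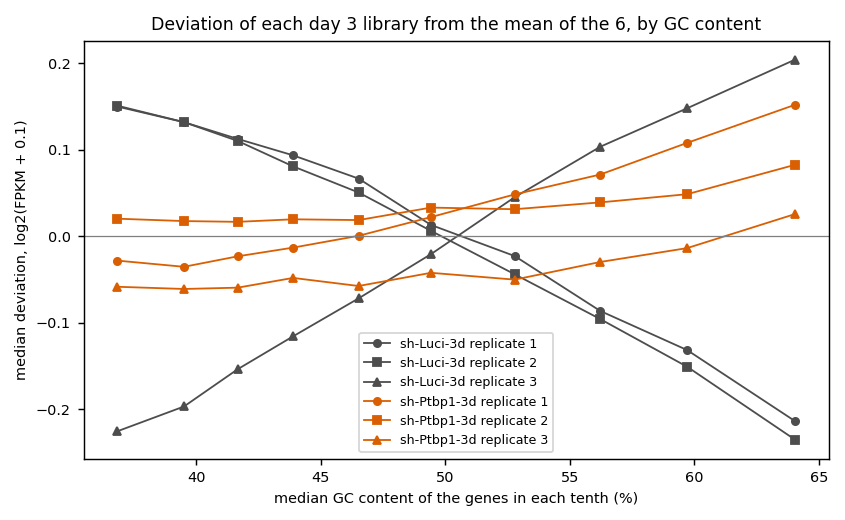
Median deviation of each day 3 library from the mean of the 6, in log2(FPKM + 0.1), against the median GC content (%) of 10 equal groups of genes. Among genes with the most GC, sh-Luci-3d replicate 3 lies at 0.20 and the other sh-Luci-3d libraries at -0.21 and -0.24, with the sh-Ptbp1-3d libraries in the range 0.03 to 0.15.

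The second library, sh-Ptbp1-3d replicate 3, held transcripts of developing cortical neurons that the others lacked. STMN2, a growth cone protein, was at 11.5 FPKM in it and listed at 0 in the other 5 libraries of day 3. NEUROD6 at 6.03 FPKM, INA at 1.84 FPKM, NEUROD2 at 1.83 FPKM and FEZF2 at 1.77 FPKM, which are transcription factors of cortical neurons apart from the neurofilament protein INA, followed the same pattern. DCX, a microtubule protein of migrating neurons, was at 2.14 FPKM there and between 0.015 and 0.035 FPKM elsewhere at day 3. Among 39 listed neuronal genes, 29 were highest in this library and 11 of the 39 were above 0 in no other library of day 3. FABP7, a radial glial lipid-binding protein, was at 15.0 FPKM against 1.52 to 2.19 FPKM. The summed level of the developing cortex list of 20 genes was 52.4 FPKM in it and 14.2 to 18.5 FPKM in the others. Blood and immune markers summed to 10.6 to 11.8 FPKM in all 6, nearly all of it CD68 at 9.55 to 10.9 FPKM, and 8 to 11 of the 15 were at 0. Of 16 listed astroglial and stem-like glioma genes, 9 were members, and 2 or 3 were at 0 in each of the 6 libraries. VIM was at 4088 to 4488 FPKM and SOX2 at 94.6 to 126 FPKM. SLC1A3 was at 1.61 to 2.47 FPKM and GLUL at 2.37 to 3.06 FPKM.

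**Figure D2:**
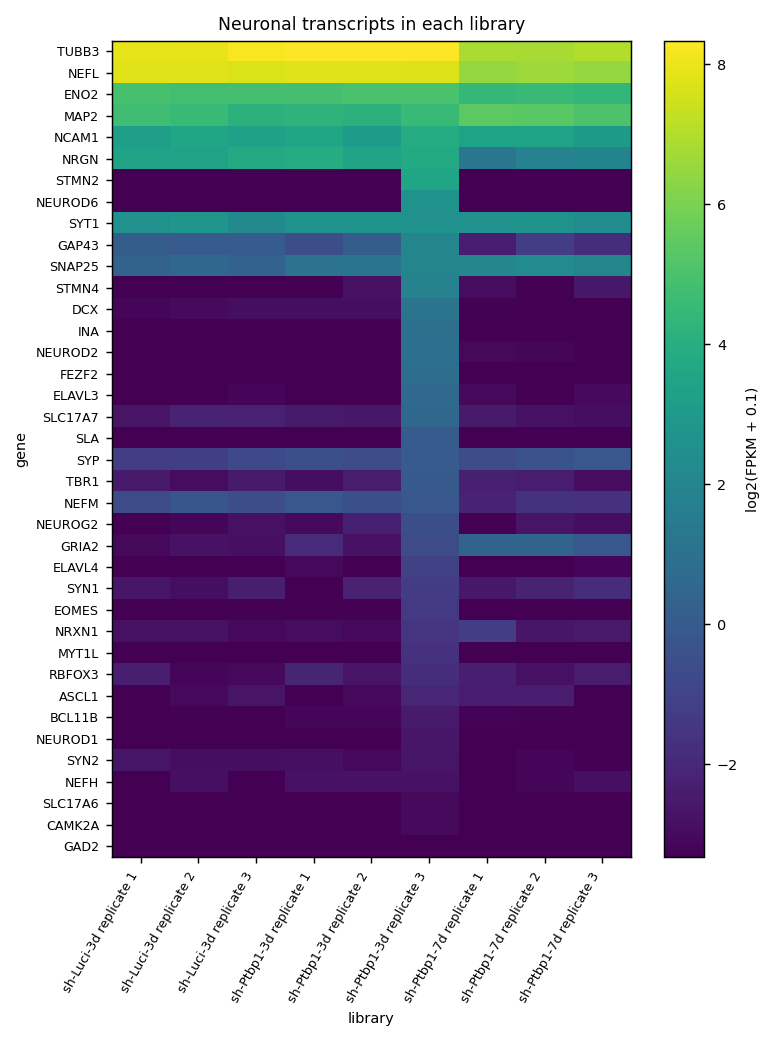
Level of listed neuronal genes, as log2(FPKM + 0.1) by colour, in each of the 9 libraries, sorted by sh-Ptbp1-3d replicate 3. STMN2, NEUROD6, INA, NEUROD2 and FEZF2 stand above 0 FPKM at day 3 in that library only, while TUBB3, NEFL and ENO2 are high in all 9.

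The targeted gene was lower at day 3 in every knockdown library. PTBP1 was at 111, 112 and 124 FPKM in sh-Luci-3d and at 66.2, 64.4 and 61.0 FPKM in sh-Ptbp1-3d. The groups did not overlap, and the knockdown mean was 55.2% of the control mean. On the scale of log2(FPKM + 0.1), the scale of all fold changes, on which low genes appear to change less than they do, the difference was -0.85 (standard error 0.073). The fit was limma over all 9 libraries with Benjamini-Hochberg adjustment over 15551 entries, and gave an adjusted p of 0.00314. It stayed past 0.05 in 29 of 32 alternative fits, with adjusted p between 0.00015 and 0.0821. Without sh-Ptbp1-3d replicate 3 the difference was -0.82 with a limma adjusted p of 0.0579, and without sh-Luci-3d replicate 3 it was -0.80 with 0.00175. At day 7 PTBP1 was at 49.7, 50.7 and 51.0 FPKM.

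PTBP2 moved the other way. It was at 6.65, 8.16 and 4.80 FPKM in sh-Luci-3d and at 17.0, 17.1 and 19.4 FPKM in sh-Ptbp1-3d, so the lowest knockdown library was above the highest control. Its log2 fold change was 1.46 (standard error 0.16, limma adjusted p = 0.00857), with adjusted p from 0.000438 to 0.192 over 32 alternatives, 25 of them past 0.05. Leaving out sh-Luci-3d replicate 1 or any 1 of the 3 sh-Ptbp1-3d libraries moved it to the other side of the threshold (log2 fold change 1.40 or more, limma adjusted p 0.0565 to 0.151), whereas without sh-Luci-3d replicate 3 the log2 fold change was 1.26 and the limma adjusted p 0.00175. PTBP3, the third paralog, was at 8.61, 8.57 and 6.06 FPKM in sh-Luci-3d and at 7.75, 8.47 and 7.21 FPKM in sh-Ptbp1-3d. Its libraries overlapped, and the difference of 0.03 had a 95% interval of -0.32 to 0.38, with a sign that changed between fits.

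Apart from the PTB pair, SRSF3 and TMEM60 were the members past an adjusted p of 0.05. The splicing factor SRSF3 was at 109, 107 and 98.2 FPKM in sh-Luci-3d and at 63.2, 66.4 and 62.5 FPKM in sh-Ptbp1-3d. Its log2 fold change was -0.71, with a standard error of 0.075 and a limma adjusted p of 0.00857 (0.000438 to 0.0912 over 32 alternatives). All 3 knockdown libraries were below all controls. At day 7 it was at 97.6, 106 and 94.6 FPKM, which overlapped the day 3 control range. TMEM60, a small transmembrane protein, was at 10.9, 10.9 and 9.93 FPKM and then at 19.2, 19.3 and 18.3 FPKM. Its log2 fold change was 0.84, with a standard error of 0.087 and a limma adjusted p of 0.00857 (0.000438 to 0.086 over 32 alternatives). Again no knockdown library reached into the control range, and at day 7 it was at 18.4 to 21.8 FPKM. Of the 11165 members, these 4 (0.0358%) passed, 2 higher and 2 lower (0.0179% each). Of all 15551 entries, 5 (0.0322%) passed, and 2 of the 5 (0.0129%) also passed a fold change above 2, namely PTBP2 and the non-coding AP000356.5, whose mean was under 1 FPKM. Without sh-Ptbp1-3d replicate 3, 0 members passed in limma (0%), while 444 were higher and 177 lower at an unadjusted p under 0.05. All 4 of the genes passed without sh-Luci-3d replicate 3, and also without both libraries.

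**Figure D3:**
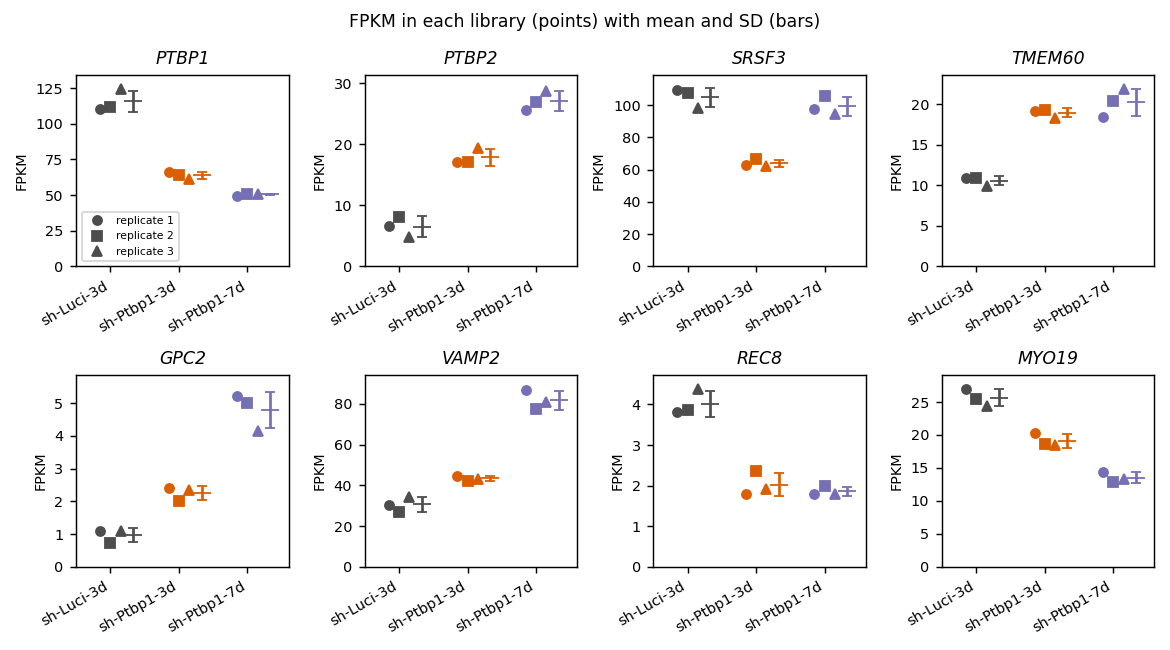
FPKM of 8 genes in each library (points, shaped by replicate number) with the mean and SD of each group of 3 libraries (bars). PTBP1, SRSF3, REC8 and MYO19 are lower and PTBP2, TMEM60, GPC2 and VAMP2 higher in all 3 sh-Ptbp1-3d libraries than in any sh-Luci-3d library, and SRSF3 is at 94.6 to 106 FPKM at day 7.

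The groups did not overlap in 1167 members (10.5%). In 641 (5.74%) the knockdown libraries were all above the controls, and in 526 (4.71%) all below. From these, the 12 higher and 12 lower genes with the smallest unadjusted p were taken for description, so their direction and their p are fixed in part by the choice. None but the 4 above passed an adjusted p of 0.05 with all libraries, and the limma adjusted p of the rest lay between 0.0721 and 0.271. In the fit without sh-Luci-3d replicate 3, 12 of 12 higher and 12 of 12 lower genes passed, beside 6.71% and 1.66% of all members. Without sh-Ptbp1-3d replicate 3, 0 of either passed, beside 0% of all members. Without both, 10 of each passed, beside 4.51% and 0.493%. The genes were ranked on these same libraries, so these counts are not a separate result. The directions of the named ones were kept in all 32 alternatives. For fits that only left out libraries this was fixed by the choice, since the groups do not overlap. The smallest two-sided p that exact permutation of 3 against 3 libraries allows for 1 gene is 0.1. That p belongs to groups that do not overlap, so 10.5% is near the share expected among genes without a difference.

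GPC2, a glypican of developing neurons that carries heparan sulfate, was at 1.11, 0.739 and 1.08 FPKM in sh-Luci-3d and at 2.40, 2.01 and 2.35 FPKM in sh-Ptbp1-3d (log2 fold change 1.14, standard error 0.17). VAMP2, the vesicle SNARE of neurotransmitter release, was at 30.5, 27.0 and 34.4 FPKM and then at 44.7, 42.2 and 43.3 FPKM (0.51, standard error 0.093). IQSEC2, an exchange factor for ARF GTPases at synapses, was at 4.63, 4.46 and 3.96 FPKM and then at 6.81, 6.39 and 6.79 FPKM (0.61, standard error 0.10). For all 3 genes the library with cortical transcripts lay within the range of the other knockdown libraries. CLCN6, an endosomal chloride-proton exchanger, was at 5.68, 5.96 and 6.67 FPKM and then at 9.55, 8.93 and 8.02 FPKM (0.53, standard error 0.099). The day 7 means were above those of both day 3 groups, at 4.79 FPKM for GPC2, 81.8 FPKM for VAMP2, 12.1 FPKM for IQSEC2 and 16.0 FPKM for CLCN6.

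The other higher genes had mixed roles. NRARP, a feedback inhibitor of Notch signalling, was at 0.796, 0.799 and 0.971 FPKM and then at 1.42, 1.41 and 1.57 FPKM (log2 fold change 0.72, standard error 0.14). ATP5MC1, a c subunit of mitochondrial ATP synthase, was at 70.4, 72.8 and 87.3 FPKM and then at 109, 121 and 99.0 FPKM (0.51, standard error 0.10). ACAD11, an acyl-CoA dehydrogenase, had a log2 fold change of 0.61 (standard error 0.12). AC008750.7, a long intergenic non-coding RNA of chromosome 19 (51394488 to 51403650), was at 0.916, 0.368 and 1.18 FPKM and then at 3.95, 3.63 and 2.12 FPKM (1.93, standard error 0.38), and had a mean of 0.579 FPKM at day 7. RBM14-RBM4, at 0.57, is a readthrough of 2 RNA-binding protein genes and overlaps both, so how reads were split between the 3 entries is uncertain. In 11 of the 12 the day 7 mean was also above every sh-Luci-3d library. The same controls had served to choose these genes, and the share among all members was not computed.

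The lower genes began with the cohesin REC8 and the enzyme GGT1. REC8, the kleisin subunit of meiotic cohesin, was at 3.81, 3.85 and 4.37 FPKM in sh-Luci-3d and at 1.80, 2.35 and 1.91 FPKM in sh-Ptbp1-3d (log2 fold change -0.96, standard error 0.14). GGT1, which cleaves extracellular glutathione, was at 2.81, 2.62 and 2.92 FPKM and then at 1.12, 1.03 and 1.53 FPKM (-1.14, standard error 0.17). GGT1 belongs to a family of near-identical copies, so its reads may be shared. The day 7 mean of REC8 was 1.86 FPKM, still below all controls, while GGT1 had a day 7 mean of 4.69 FPKM, above all controls. DPYD, the first enzyme of pyrimidine breakdown, was at 25.3, 24.2 and 19.8 FPKM and then at 14.5, 15.6 and 14.5 FPKM (-0.63, standard error 0.11). MYO19, a myosin that moves mitochondria, was at 27.0, 25.5 and 24.5 FPKM and then at 20.3, 18.6 and 18.4 FPKM (-0.42, standard error 0.083). In each of these genes all knockdown libraries lay below all controls, and none of them passed the adjustment with all libraries in the fit.

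TRIM4, a RING-type ubiquitin ligase, had a log2 fold change of -0.48 (standard error 0.082), and CASP2, an initiator caspase, one of -0.56 (standard error 0.098). ZNF117, a zinc finger protein, was at 5.13, 4.84 and 3.17 FPKM and then at 2.13, 2.39 and 2.04 FPKM (-0.94, standard error 0.18). Its lowest control was sh-Luci-3d replicate 3. OVGP1, a secreted glycoprotein, was at -0.87, the telomere-binding homeobox protein HMBOX1 at -0.48, and AGAP5, a member of a multicopy family whose reads may be shared, at -0.73. Of the 12 lower genes, 9 had a day 7 mean below every sh-Luci-3d library, again the controls by which they were chosen. The share among all members was not computed. Gene spans of 4 of the 12 higher and 4 of the 12 lower genes overlap another listed gene, among them CLCN6, VAMP2, ACAD11, REC8, MYO19 and ZNF117. No use of strand is stated for the counting, so reads of such pairs cannot be told apart.

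**Figure D4:**
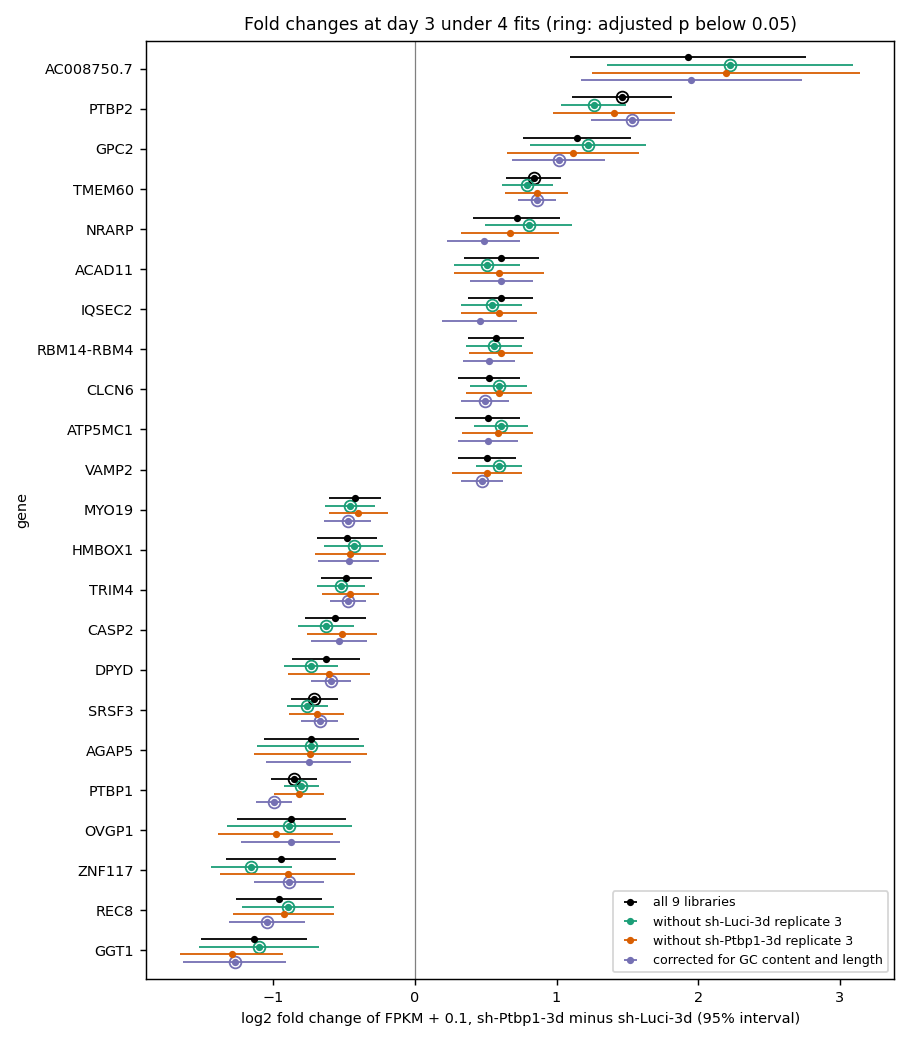
Log2 fold change (sh-Ptbp1-3d minus sh-Luci-3d) with 95% interval for 23 of the 24 genes under 4 fits, with a ring where the limma adjusted p is below 0.05. All estimates keep their sign, which leaving out a library could not change in genes chosen for groups that do not overlap. With all 9 libraries 4 genes carry a ring, and without sh-Ptbp1-3d replicate 3 there are 0.

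Correcting every library for its trends with GC content and length raised the number of members past an adjusted p of 0.05 to 22 of 10962 (0.201%), with 11 higher (0.1%) and 11 lower (0.1%). All 22 were separated between the groups in the uncorrected FPKM, and all 4 members of the uncorrected fit were among them. PTBP1 had a corrected log2 fold change of -0.996 and PTBP2 of 1.53 (limma adjusted p = 0.000161 and 0.0017). Beside TMEM60, GPC2, VAMP2 and CLCN6, the higher genes were the following, named after their values were seen. PFN2, the neuronal form of the actin-binding protein profilin, was at 102, 110 and 96.3 FPKM in sh-Luci-3d and at 135, 138 and 127 FPKM in sh-Ptbp1-3d. CAP2, another actin regulator, was at 29.8, 31.0 and 23.7 FPKM and then at 39.5, 39.9 and 38.7 FPKM. The palmitoyltransferase ZDHHC2, the ketone body enzyme OXCT1, the nucleoporin SEH1L and the lipid hydrolase ABHD16A completed the 11, with corrected log2 fold changes of 0.40, 0.46, 0.46 and 0.36.

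Beside REC8, GGT1, ZNF117, SRSF3, DPYD, MYO19, TRIM4 and PTBP1, the lower genes after correction were IQGAP1, UNC45A and CLDN15, the last 2 likewise named after their values were seen. IQGAP1, a scaffold of the actin cytoskeleton, was at 74.2, 73.7 and 54.7 FPKM in sh-Luci-3d and at 50.2, 52.5 and 46.4 FPKM in sh-Ptbp1-3d (corrected log2 fold change -0.40, limma adjusted p = 0.0457, range 0.0125 to 1 over 32 alternatives). Its lowest control was again sh-Luci-3d replicate 3. The myosin chaperone UNC45A was at -0.43 and the tight junction protein CLDN15 at -0.57 after correction. With the correction and without sh-Ptbp1-3d replicate 3, 5 members passed (0.0456%), 2 higher (0.0182%) and 3 lower (0.0274%). These were PTBP1, PTBP2, SRSF3, TMEM60 and GGT1, and all 5 were among the 22.

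Without sh-Luci-3d replicate 3, 934 members passed an adjusted p of 0.05 (8.37%), 749 higher (6.71%) and 185 lower (1.66%). The genes called higher had a median GC content of 61.3% and those called lower 41.6%, beside 47.9% over all members. Across members the log2 fold change correlated with GC content at 0.55 in this fit and at 0.34 with all libraries, where genes are not independent replicates. When the omitted library was put back, 122 of the 749 higher genes and 63 of the 185 lower genes separated the groups. With the GC and length correction and without this library, 121 members passed (1.1%), 86 higher (0.785%) and 35 lower (0.319%), with median GC contents of 49.7% and 48.4%. All 22 members of the corrected fit of all libraries were among the 121, or 18.2% of them. Without both doubted libraries 559 passed (5.01%), 504 of them higher (4.51%) and 55 lower (0.493%). Whether the GC trend of sh-Luci-3d replicate 3 or that of the other 2 controls is the deviation cannot be told apart.

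Several of the largest folds of the fit without sh-Luci-3d replicate 3 depended on that library. AL157935.2, which overlaps AK1 and ST6GALNAC6, was at 2.78, 3.04 and 0.262 FPKM in sh-Luci-3d and at 0.329, 0.292 and 0.226 FPKM in sh-Ptbp1-3d. TRAPPC5, a subunit of a vesicle tethering complex, was at 25.1, 28.1 and 66.3 FPKM and then at 57.2, 88.6 and 88.0 FPKM. FKBP2, a prolyl isomerase of the endoplasmic reticulum, was at 21.9, 10.4 and 71.8 FPKM and then at 41.8, 38.5 and 33.3 FPKM. For each of these genes the third control lay with or beyond the knockdown libraries, so the fold depended on leaving it out. The same held for the readthrough ARPIN-AP3S2, at 0.499 FPKM or less in the first 2 controls and 3.09 FPKM in the third. NBPF19, a member of a multicopy family, and SLC24A1, a cation exchanger, did not overlap between the groups. NBPF19 was at 7.96, 6.98 and 6.54 FPKM and then at 2.57, 1.09 and 3.36 FPKM (log2 fold change -1.70, limma adjusted p = 0.271, range 0.0174 to 0.751), and its reads may be shared with its copies.

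Gene lists were then described by the counts and medians of their members, beside those of all 11165 members, whose median log2 fold change was 0.01. Of all members 4.46% were higher and 2.7% lower at an unadjusted p under 0.05. In the PTB family with its cofactors, PTBP1 and PTBP2 were the only 2 of 8 past that p. The corepressors RAVER1 and RAVER2 were at 0.07 and 0.00, and HNRNPL was at -0.01. MATR3, a nuclear matrix RNA-binding partner of PTBP1, was at 32.9, 25.7 and 28.0 FPKM in sh-Luci-3d and at 17.4, 20.3 and 35.1 FPKM in sh-Ptbp1-3d, so that replicate 3 of the knockdown alone lay above the controls. Its log2 fold change was -0.31 with that library and -0.61 without it (limma adjusted p = 0.791 and 0.599, range 0.0609 to 1).

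Among 13 SR proteins, which bind exonic enhancers, 0 were higher and 2 were lower at an unadjusted p under 0.05, SRSF3 and SRSF4. SRSF4 was at 59.2, 52.8 and 61.4 FPKM and then at 50.2, 50.1 and 47.3 FPKM (-0.23, limma adjusted p = 0.592). The list median was -0.02, or -0.15 without sh-Luci-3d replicate 3, and 6 of the 13 were positive. Among 21 heterogeneous nuclear ribonucleoproteins, HNRNPH3 (0.21) and HNRNPD (0.30) were higher at that p and 0 were lower, with a median of 0.05. The median was 0.15 without sh-Luci-3d replicate 3, where HNRNPA0 was higher past an adjusted p of 0.05 (4.76%, beside 6.71%). With the correction as well, the median was 0.14 and HNRNPA0 passed again (4.76%, beside 0.785%). In that fit 9 of the 21 were higher and 0 lower at the unadjusted p, beside 1111 and 946 of all 10962 members. Of 10 neural splicing regulators MBNL3 was lower at an unadjusted p under 0.05, at 2.76, 4.26 and 3.25 FPKM and then at 2.16, 2.34 and 1.88 FPKM (-0.65, limma adjusted p = 0.622). Their median was -0.02, and -0.20 without sh-Luci-3d replicate 3, where QKI was lower past an adjusted p of 0.05 (10%, beside 1.66%). With the correction as well, the median was -0.05 and 0 passed. Of 14 factors of nonsense-mediated decay 0 passed that unadjusted p in either direction with all libraries uncorrected, with values from -0.20 to 0.32. Without sh-Luci-3d replicate 3, MAGOH was higher past an adjusted p of 0.05 (7.14%, beside 6.71% of all members). With the GC and length correction and without that library, MAGOH passed again (7.14%, beside 0.785%). With all libraries 0 passed that adjusted p, corrected or not.

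The route from PTBP1 to neuronal genes was followed through REST and miR-124. The 11 members of the REST complex and the small CTD phosphatases, which dephosphorylate RNA polymerase II, lay between -0.10 and 0.09, and 0 passed an unadjusted p of 0.05. CTDSP2, one of these phosphatases, was at 20.6, 19.2 and 19.9 FPKM and then at 22.0, 21.1 and 20.4 FPKM (0.09, 95% interval -0.08 to 0.26). Of 16 transcripts known as miR-124 targets, IQGAP1 was lower and 0 were higher at that p, and 5 were positive, with a median of -0.04. That median was -0.12 without sh-Luci-3d replicate 3 and 0.04 without sh-Luci-3d replicate 2. The intervals do not show that the others were equal in the groups.

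Of 10 members repressed by REST in non-neuronal cells, 8 were positive, with a median of 0.21. After the GC and length correction 7 were positive, with a median of 0.13, and with the correction and without sh-Luci-3d replicate 3 the values were 6 and 0.09. One of the 8, STMN2, was a member through sh-Ptbp1-3d replicate 3 alone. SNAP25, a synaptic SNARE, was at 1.22, 1.42 and 1.17 FPKM in sh-Luci-3d and at 2.05, 2.14 and 3.86 FPKM in sh-Ptbp1-3d (log2 fold change 0.97, limma adjusted p = 0.36, range 0.0289 to 0.759). Its highest value was in the library with cortical transcripts, and without that library the difference was 0.69 (limma adjusted p = 0.599). TUBB3, the neuronal tubulin recognised by the TUJ1 antibody, was at 237, 250 and 297 FPKM and then at 322, 314 and 314 FPKM (0.29, limma adjusted p = 0.583, range 0.0147 to 1), and at 116, 112 and 127 FPKM at day 7. SCG2, a granin of secretory vesicles, had the opposite sign, at 2.75, 2.75 and 2.37 FPKM and then at 1.89, 1.87 and 1.94 FPKM (-0.45, limma adjusted p = 0.356, range 0.0115 to 0.759). The groups did not overlap for any of these 3 genes, and none passed the adjustment with all libraries.

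The neuronal marker list had 9 members, 8 of them positive, with a median of 0.13, which became 0.03 without sh-Ptbp1-3d replicate 3. MAP2 was the negative one, at 26.6, 22.8 and 17.7 FPKM and then at 18.9, 18.1 and 24.1 FPKM (-0.13). The neurofilament gene NEFL was at 0.02. STMN2 and GAP43 were members of this list through sh-Ptbp1-3d replicate 3 alone, so its median is in part a description of that library. Of the 5 developing cortex members, 3 (STMN2, NEUROD6 and GAP43) had a mean under 1 FPKM over the other 5 libraries of day 3 and so were members through that library. The list median, 0.47 with it and 0.00 without it, is therefore given as a description of that library. Among 9 astroglial and stem-like glioma genes, SOX2, a stem cell transcription factor, was at 101, 94.6 and 121 FPKM and then at 126, 126 and 121 FPKM (0.24, limma adjusted p = 0.623, range 0.0145 to 1), and NOTCH1 was at 0.19. In the axon guidance list, NTNG2, a membrane-bound netrin relative, was at 1.996, 2.006 and 2.026 FPKM and then at 2.97, 2.62 and 2.66 FPKM (0.43, limma adjusted p = 0.401, range 0.0188 to 0.79). The repulsive ligand SEMA3F was at 0.39, and 2 of the 44 members were higher and 0 lower at an unadjusted p under 0.05, with 29 positive and a median of 0.05. After the GC and length correction 2 were higher and 3 lower, beside 550 and 672 of all 10962 members, 21 were positive and the median was -0.01.

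Of the 10 genes that the study followed as candidates downstream of PTBP1, 5 were members. The list was chosen by the study on these samples and is not independent evidence. The member ETV1, an ETS transcription factor, was at 1.73, 2.63 and 2.22 FPKM and then at 1.79, 1.53 and 1.85 FPKM (-0.31, limma adjusted p = 0.734), and its groups overlapped, as did those of SEMA6A (-0.02), TXNIP (-0.04) and FOXO1 (0.11). The groups of ETV5, another ETS factor, did not overlap, at -0.12 (limma adjusted p = 0.801). Of these 5, 0 passed an unadjusted p of 0.05 in limma with all libraries. The other 5 were under 1 FPKM, and in 3 of them, UNC5B, LZTS1 and CAMK2B, every knockdown library was above every control. Of the members, 5.74% were so, and the share among genes under 1 FPKM was not computed. The netrin receptor UNC5B was at 0.319, 0.248 and 0.271 FPKM and then at 0.426, 0.472 and 0.504 FPKM (0.58, limma unadjusted p = 0.00435, adjusted p = 0.474, range 0.0486 to 0.988). The leucine zipper protein LZTS1 was at 0.302, 0.376 and 0.317 FPKM and then at 0.426, 0.500 and 0.529 FPKM (0.44, limma unadjusted p = 0.0338, adjusted p = 0.652, range 0.121 to 1). The neuronal kinase subunit CAMK2B was at 0, 0.023 and 0.030 FPKM and then at 0.087, 0.041 and 0.423 FPKM, highest in the library with cortical transcripts (limma unadjusted p = 0.0352, adjusted p = 0.655, range 0.156 to 1). The ETS factor ETV4 was at 0.32 and the death-associated kinase DAPK1 at 0.09, with overlapping groups. The day 7 means were 5.69 FPKM for UNC5B and 2.43 FPKM for DAPK1.

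Cell cycle lists lay slightly below the median of all members. Of 56 members of the G2/M list 13 were positive, with a median of -0.08, and 2 were lower at an unadjusted p under 0.05. MKI67, the proliferation marker KI67, was at 22.2, 24.3 and 19.0 FPKM and then at 17.6, 18.5 and 17.1 FPKM (-0.29, limma adjusted p = 0.623, range 0.0299 to 1), and the spindle protein DLGAP5 was at -0.24. Without sh-Luci-3d replicate 3, 6 of the 56 passed an adjusted p of 0.05, all lower (10.7%, beside 1.66% of all members). With the correction 0 passed, with or without that library, while the median was -0.08 with it and -0.10 without it. At an unadjusted p under 0.05, 11 and 18 of the 56 were lower in these 2 corrected fits. Among all 10962 members with GC content, 672 and 946 were lower at that p in the same fits. The median GC content of the list was 43.2%. Of 48 S phase members, GINS4, a subunit of the replicative helicase, was lower at -0.29 and the list median was -0.03.

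In cholesterol synthesis 20 of 24 members were positive, with a median of 0.13, and 6 were higher and 0 lower at an unadjusted p under 0.05. HMGCS1, which makes the precursor of mevalonate, was at 44.4, 55.8 and 39.0 FPKM in sh-Luci-3d and at 57.9, 58.9 and 59.2 FPKM in sh-Ptbp1-3d (log2 fold change 0.35, limma adjusted p = 0.584, range 0.0732 to 1). MVD, the mevalonate decarboxylase, was at 37.8, 38.9 and 64.3 FPKM and then at 73.2, 64.2 and 60.6 FPKM (0.53). For MVD the third control lay among the knockdown libraries, and for HMGCS1 it did not. MVK was at 0.28 and TM7SF2 at 0.31. The list median was 0.13 without sh-Luci-3d replicate 3, 0.16 without sh-Ptbp1-3d replicate 3 and 0.10 after the GC and length correction. An adjusted p of 0.05 was passed by 4 of the 24, all higher (16.7%, beside 6.71%), without sh-Luci-3d replicate 3, by MVD alone (4.17%, beside 0.785%) with the correction and without that library, and by 0 with all libraries, corrected or not. Leaving out each of the 6 libraries in turn gave list medians of 0.08 to 0.16.

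Values of the ribosomal protein genes depended on the same control library. Of their 79 members 49 were positive, with a median of 0.07. Without sh-Luci-3d replicate 3 the median was 0.17 and 16 passed an adjusted p of 0.05, all higher (20.3%, beside 6.71%). With the correction and without that library the median was 0.13 and 4 passed, RPL24, RPL37, RPL39 and RPS23 (5.06%, beside 0.785%). With all libraries 0 passed, corrected (median 0.05) or not. RPL28 went against the list, at 396, 301 and 459 FPKM and then at 245, 288 and 264 FPKM (-0.52, limma adjusted p = 0.528, range 0.0532 to 0.944). The 13 mitochondrially encoded members had a median of -0.10, which was -0.29 without sh-Luci-3d replicate 3 and 0.00 without sh-Luci-3d replicate 2.

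Interferon response genes had 7 of 28 members positive and a median of -0.15, with 2 lower and 0 higher at an unadjusted p under 0.05. The sign of the median depended on 1 control: sh-Luci-3d replicate 2 was the highest of the 6 libraries in 21 of the 28 members and sh-Luci-3d replicate 1 the lowest in 15. Without replicate 2 the list median was 0.04, and without replicate 1 it was -0.34. The antiviral gene IFI44L was at 51.6, 83.7 and 49.9 FPKM and then at 39.7, 41.6 and 46.1 FPKM (-0.50, limma adjusted p = 0.619, range 0.0551 to 1). Its highest library was sh-Luci-3d replicate 2, and the groups did not overlap. The list median was -0.28 without sh-Ptbp1-3d replicate 3 and -0.16 after the GC and length correction.

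Of 15 immediate early genes, with a median of 0.12, IER2 was higher (0.29) and IER3 (-0.39) and ATF3 (-0.23) were lower at an unadjusted p under 0.05. Without sh-Luci-3d replicate 3 their median was 0.25, and IER2, IER5, JUNB and JUND passed an adjusted p of 0.05, all higher (26.7%, beside 6.71%). With the correction and without that library, over the 13 of them with GC content, the median was 0.05 and IER5 passed (7.69%, beside 0.785%). Of 15 cAMP response genes, which the forskolin of the medium would address in both groups, 0 were higher and 1 was lower, RGS2 (-0.22), with a median of 0.08, or -0.02 after the correction. Among 30 genes of the integrated stress and unfolded protein responses CEBPB was higher (0.32), at 24.3, 23.1 and 31.6 FPKM and then at 32.7, 31.9 and 32.9 FPKM. The hypoxia gene ANKRD37 was at 5.37, 5.01 and 9.45 FPKM and then at 8.55, 9.38 and 9.10 FPKM (0.50). In CEBPB and ANKRD37 sh-Luci-3d replicate 3 lay near the knockdown libraries. BNIP3, of the same list as ANKRD37, was at 68.1, 66.0 and 56.2 FPKM and then at 52.6, 56.7 and 54.7 FPKM (-0.21). Of the 24 members of that list 9 were positive, and ANKRD37 was the 1 higher and BNIP3 the 1 lower at an unadjusted p under 0.05. Without sh-Luci-3d replicate 3, 2 were higher and 2 lower past an adjusted p of 0.05 (8.33% each, beside 6.71% and 1.66%). With the correction as well, ANKRD37 passed (4.17%, beside 0.785%). The lists of BMP and TGF-beta targets, proteasome subunits, and collagens, integrins and laminins had medians of 0.03, 0.03 and 0.10, and that of glycolysis and hypoxia -0.03. Without sh-Luci-3d replicate 3 these medians were 0.09, 0.06, 0.12 and 0.02. PSMA7 of the proteasome (3.23%) and 4 of the 30 collagens, integrins and laminins (13.3%) then passed an adjusted p of 0.05. All were higher, beside 6.71% of all members. With the correction as well, 0 of these passed. At an unadjusted p under 0.05, 9 of 31 proteasome members were then higher and 1 lower, beside 1111 and 946 of all 10962. The 3 metallothioneins were at -0.28 to -0.17, with 0 past an unadjusted p of 0.05, and the 2 oligodendrocyte members, CNP and UGT8, at 0.11 and -0.09.

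**Figure D5:**
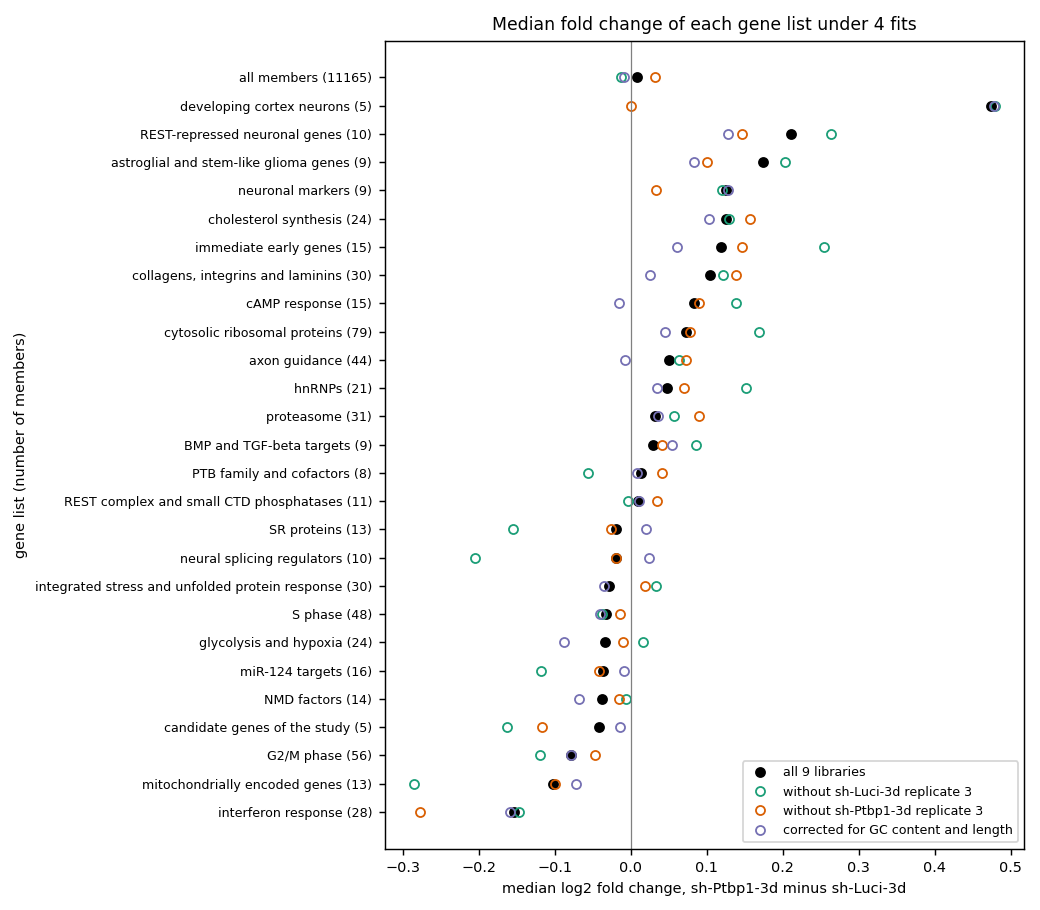
Median log2 fold change (sh-Ptbp1-3d minus sh-Luci-3d) of each gene list with 5 or more members, under 4 fits. The developing cortex list drops from 0.47 to 0.00 without sh-Ptbp1-3d replicate 3, the ribosomal protein list goes from 0.07 to 0.17 without sh-Luci-3d replicate 3, and the cholesterol synthesis list stays between 0.10 and 0.16.

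The precision of the comparison bounds these statements. Over the members the median standard error of the log2 fold change was 0.12 and the median half-width of its 95% interval was 0.27. The smallest absolute log2 fold change that passed an adjusted p of 0.05 was 0.71, and 44 members had an absolute value above 1, of which PTBP2 passed. At an unadjusted p under 0.05 there were 800 members, 498 higher and 302 lower. Differences smaller than these intervals were not detectable, and genes that missed the threshold are not shown to be equal.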

How the data were processed

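RNA of U251 cells was sequenced by the authors on Illumina HiSeq. The submitters' processing notes name HISAT2 and GRCh38. The deposited table holds FPKM as made by the authors for known and assembled genes. Depth, counting settings and use of strand are not given in the sources used here. A deposited table of positions of assembled loci was not used. Groups and replicate numbers came from the sample titles.

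The values, as log2(FPKM + 0.1), entered limma (version 3.58.1, R 4.3.3) with an intensity trend, all 9 libraries in 3 groups and entries with a mean of at least 0.1 FPKM (15551), with Benjamini-Hochberg adjustment over all. Positions and GC content came from GENCODE v29 (97.4% of symbols matched, 98.2% of members with GC content). The correction used splines with 5 degrees of freedom on GC content and log length. The fit was first tested on simulated data. Python 3.11.15 and matplotlib 3.10.9 drew the figures.

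Members and the 29 gene lists were chosen with earlier results of these data known. Named genes were the PTB paralogs and study candidates, all members past an adjusted p of 0.05, the 12 higher and 12 lower non-overlapping members with the smallest p, up to 4 members of each list, and the 6 largest rises and falls past both thresholds without sh-Luci-3d replicate 3. Others are marked in the text. Some named genes are not reported here. Alternatives were pseudocounts of 1 and 0.01, other filters, scalings and variance models, the day 3 libraries alone, the replicate number as a block, the correction, and leaving out libraries.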

Additional observations from a re-analysis of the deposited data

How the results depend on the processing

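The count of 2 entries past an adjusted p of 0.05 and a fold change above 2 was 1 with a pseudocount of 0.01, with the members alone, with TPM, with median-ratio scaling, with quantile normalization and without the intensity trend. It was 0 with the day 3 libraries alone, 97 (51 higher) with array weights, 4 with the GC and length correction and 36 without both doubted libraries, and between 0 and 57 when each library was left out in turn. The count of 4 members past an adjusted p of 0.05 was 0 with the day 3 libraries alone, 1 without the trend, 1207 (921 higher) with array weights, 22 with the correction and 559 without both libraries, and between 0 (without sh-Ptbp1-3d replicate 3) and 934 (without sh-Luci-3d replicate 3) when each was left out; it was 1 without sh-Luci-3d replicate 1 or without sh-Ptbp1-3d replicate 1 or 2. Array weights gave sh-Luci-3d replicate 3 a weight of 0.181, the lowest of the 9. Alternatives added after seeing the data combined the correction with other choices. They gave 1 to 11 entries when each day 3 library was left out, 5 without both and 1 with the day 3 libraries alone, and 121 members without sh-Luci-3d replicate 3, 27 without both and 9 with the day 3 libraries alone. The causes were not tested.

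The replicate numbers did not pair the libraries. Deviations of same-numbered day 3 libraries correlated at 0.00, 0.06 and 0.07. With the replicate number as a block, 0 members and 0 entries passed, and PTBP1 (-0.85, adjusted p = 0.0583) and PTBP2 (1.46, adjusted p = 0.0779) missed the threshold. PTBP1 also missed it with the day 3 libraries alone (-0.85) and without sh-Ptbp1-3d replicate 3 (-0.82). PTBP2 missed it with the day 3 libraries alone and without the trend (1.46 in each), and its value lay between 1.20 and 1.64 when each library, or both doubted ones, were left out. That of PTBP1 lay between -0.885 and -0.768.

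Of 2481 values of 78 further genes under alternatives, 2456 kept their direction. The exceptions follow. PTBP3 was at -0.011 without assembled loci and mitochondrial genes and at -0.090 with array weights, and ranged from -0.138 to 0.111 when libraries were left out. SEMA6A ranged from -0.163 to 0.082 when libraries were left out, and with the correction was at 0.014 without sh-Luci-3d replicate 1, 0.071 without sh-Luci-3d replicate 2 and 0.035 without sh-Ptbp1-3d replicate 1. TXNIP ranged from -0.277 to 0.129, and with the correction and the same libraries left out was at 0.017, 0.029 and 0.154. DAPK1 was at -0.096 with array weights and ranged from -0.182 to 0.202 when libraries were left out. With the correction it was at -0.136 without sh-Luci-3d replicate 3, -0.027 without sh-Ptbp1-3d replicate 3 and -0.230 without both. FKBP2 ranged from -0.072 to 1.41 when libraries were left out and was at -0.150 with the correction and without sh-Luci-3d replicate 2. The median of mitochondrially encoded genes has no value where those genes were removed. The unknown read depth limits what can be said of low genes.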
